A study of Mus musculus with 8 samples.

Results

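The genes described here are 10 RNA-binding splicing regulators of 5 families whose members are best known for splicing programmes of particular tissues: *Mbnl1*, *Mbnl2* and *Mbnl3*, *Celf1* and *Celf2*, *Rbfox2*, *Esrp1* and *Esrp2*, and *Rbpms* and *Rbpms2*. They were found by gene symbol among the 40840 genes of the count tables, and all 10 are listed there and passed the filter on low counts that left 19104 genes for testing. RNA came from whole testes, a mixture of germ cells and somatic cells, of mice aged 12 days (P12) on a C57BL/6J background. The 4 wild type mice carried 1 floxed and 1 intact copy of the *Tra2b* poison exon, an exon that makes the transcript non-productive (genotype *Tra2bPE* fl/+). The 4 *Tra2b-cPEko* mice carried 1 floxed and 1 deleted copy and the *Vasa-Cre* transgene, which is active in germ cells, so that germ cells lose the exon on both copies and somatic cells such as Sertoli, Leydig and peritubular cells keep it on 1. The genotypes thus differed in the transgene and in 1 deleted copy in every cell, as well as in the germ cells, and these differences cannot be told apart here.

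Muscleblind-like (MBNL) and CUGBP Elav-like family (CELF) proteins bind pre-mRNA near regulated exons and often act in opposite directions on the same exon, a balance known from the muscle and heart, where it shifts as the tissue matures and is disturbed in myotonic dystrophy. RBFOX2 acts on exons according to where it binds, ESRP1 and ESRP2 maintain the exon choices of epithelial cells, and RBPMS is a regulator of the splicing programme of differentiated smooth muscle, a tissue represented in the young testis by the contractile cells around the tubules. The comparison asks whether the RNA of these regulators differed in amount in testes whose germ cells lack the *Tra2b* poison exon. Counts over whole genes do not show which exons the regulators' own transcripts or their targets contained.

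Between 36757386 and 59101569 reads a library fell on genes, and levels are given as CPM, counts scaled to a common library total with TMM factors, with the SD over 4 mice. *Tra2b* averaged 163.8 CPM in wild type against 197.8 CPM in *Tra2b-cPEko* mice, and its paralogue *Tra2a* averaged 128.6 against 69.5 CPM, both without overlap between the genotypes. Of all genes tested, 0.157% had an adjusted p under 0.05 with edgeR's quasi-likelihood test and Benjamini-Hochberg adjustment. None of the 10 regulators did, nor did any at a threshold of 0.1. With DESeq2, 2 of the 10 had an adjusted p under 0.05, *Mbnl3* and *Rbpms2*, both lower in *Tra2b-cPEko* testes, where 2.79% of the 18149 genes with an adjusted p passed in either direction and 1.14% in the lower direction (1.66% higher). Neither DESeq2 call was kept in every fit that leaves out 1 mouse, and such fits also have fewer mice. Over all genes these fits called between 110 and 1025, against 507 with all 8 mice. *Mbnl3* passed in 2 of the 8 DESeq2 fits that leave out 1 mouse (without wild type C or *Tra2b-cPEko* B), with an adjusted p of at most 0.15 in the others, and *Rbpms2* passed in 4 of the 8 (without wild type C or D, or *Tra2b-cPEko* A or B), with at most 0.0942 in the others. An unadjusted edgeR p under 0.05 was found for 3 regulators, *Mbnl1* higher and *Mbnl3* and *Rbpms2* lower, where 15.3% of all genes tested had one, 8.22% higher and 7.07% lower. The levels of the 4 mice of each genotype did not overlap for *Mbnl3* and *Rbpms2*, 2 of 10 genes, both lower, where 8.54% of all genes tested did not overlap, 4.36% higher and 4.18% lower. The median log2 fold change (*Tra2b-cPEko* against wild type) was 0.02 over the 10 regulators and -0.001 over all genes, and the median of its size was 0.09 in both. Per-mouse levels of every regulator are shown in the panels by gene.

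**Figure D1:**
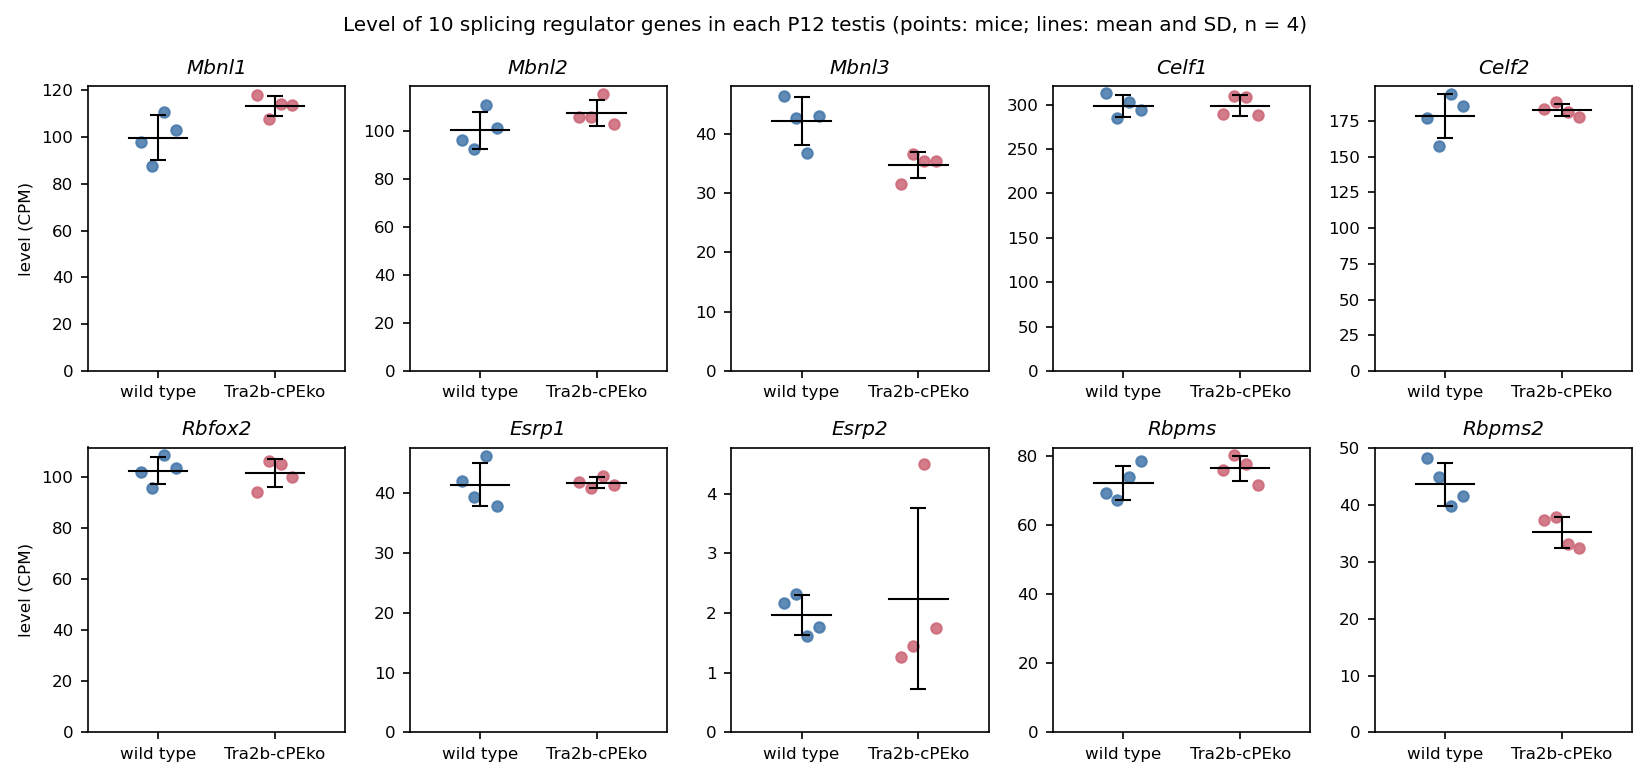
Level of each of the 10 regulator genes in CPM (linear axes from 0) in the 4 wild type (blue) and 4 *Tra2b-cPEko* (red) testes, 1 point per mouse, with the mean and SD as black lines. The points of the genotypes separate for *Mbnl3* (36.8 to 46.4 against 31.6 to 36.6 CPM) and *Rbpms2* (39.7 to 48.3 against 32.4 to 37.8 CPM) and overlap for the other 8 genes.

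Of the 3 muscleblind-like genes, *Mbnl3* had the lower mean and *Mbnl1* the higher mean in *Tra2b-cPEko* testes, and neither passed edgeR's adjusted threshold. *Mbnl3*, the X-linked member of the family, which is best known from placenta and from immature muscle cells, lies on chromosome X from 50202383 to 50295478 of GRCm39. It had 46.4, 42.7, 36.8 and 43.0 CPM in wild type replicates A to D and 31.6, 36.6, 35.4 and 35.5 CPM in *Tra2b-cPEko* replicates A to D. Every *Tra2b-cPEko* value was below every wild type value, but the gap between the genotypes was narrow, from 36.6 CPM in *Tra2b-cPEko* replicate B to 36.8 CPM in wild type replicate C. Wild type testes averaged 42.2 ± 4.02 CPM and *Tra2b-cPEko* testes 34.7 ± 2.19 CPM (SD, n = 4 each), a change of -17.7%. On the log2 scale the fold change was -0.28 (standard error 0.07, 95% interval -0.44 to -0.13). Its adjusted p was 0.122 by edgeR's quasi-likelihood test and 0.0219 by DESeq2. An exact permutation test of the log2 CPM over the 8 mice gave p = 0.0286, the smallest value that 4 against 4 mice allow. Without wild type replicate C, its lowest wild type mouse, the edgeR adjusted p was 0.0386, the lowest of the 8 fits that leave out 1 mouse, and the highest was 0.295. Across the 702 tested genes of the X chromosome the median log2 fold change was 0.03, and 300 of them (42.7%) were below 0. Over all 19104 genes tested the median was -0.001, and 9615 were below 0.

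*Mbnl1* and *Mbnl2* are the widely expressed members of the family, known for promoting the exon choices of differentiated muscle and brain. *Mbnl1*, on chromosome 3 from 60380102 to 60537183, had 97.9, 87.4, 110.6 and 102.9 CPM in wild type replicates A to D and 117.9, 107.5, 114.2 and 113.6 CPM in *Tra2b-cPEko* replicates A to D. Only *Tra2b-cPEko* replicate B fell within the wild type range, below wild type replicate C. For *Mbnl1* the log2 fold change was 0.18 (standard error 0.06, 95% interval 0.05 to 0.32), and its adjusted p was 0.215 by edgeR's quasi-likelihood test and 0.152 by DESeq2. In DESeq2 fits without 1 mouse, *Mbnl1* passed only without wild type C (adjusted p 0.0103). *Mbnl2*, with 100.3 ± 7.81 CPM in the wild type mice against 107.6 ± 5.40 CPM in the *Tra2b-cPEko* mice (SD, n = 4 each), overlapped more widely and had an interval of -0.03 to 0.23 around a log2 fold change of 0.10. The MBNL genes summed to 242.3 ± 14.8 CPM for wild type and 255.6 ± 6.61 CPM for *Tra2b-cPEko* mice (SD, n = 4 each), with overlap. *Mbnl3* made up 17.5% ± 2.35 of the MBNL reads of wild type libraries and 13.6% ± 0.98 of those of *Tra2b-cPEko* libraries (SD, n = 4 each).

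The RBPMS genes encode closely related proteins with a single RNA recognition motif, and of the pair *Rbpms2* had the lower level in *Tra2b-cPEko* testes. *Rbpms2*, which has been studied in smooth muscle precursors and in oocytes, lies on chromosome 9 from 65536351 to 65567819. It had 48.3, 44.9, 39.7 and 41.6 CPM in wild type replicates A to D and 37.3, 37.8, 33.2 and 32.4 CPM in *Tra2b-cPEko* replicates A to D. Wild type replicates A and B were highest, replicates C and D came next, and all 4 *Tra2b-cPEko* mice were lower. *Rbpms2* had the lowest edgeR p of the 10 regulators, with a log2 fold change of -0.31 (standard error 0.07, 95% interval -0.47 to -0.15) and means of 43.6 ± 3.78 and 35.2 ± 2.76 CPM (SD, n = 4 each). Its adjusted p was 0.101 with edgeR's quasi-likelihood test and 0.00971 with DESeq2, and the exact permutation p was 0.0286. The edgeR adjusted p was 0.0361 without the filter on low counts and between 0.0511 and 0.259 in the 8 fits that leave out 1 mouse. The paper lists primers for *Rbpms2* among those of its RT-qPCR. It ran that method on P12 testes, n = 4 per genotype, to check a panel of predicted expression changes. The values of this separate measurement of RNA were not used here. GENCODE holds a near-identical processed pseudogene of *Rbpms2*, *Gm3470*, with 99.8% identity over 420 bases, but it had between 1 and 4 reads in each library.

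*Rbpms*, the smooth muscle regulator, had 69.4, 67.3, 73.9 and 78.6 CPM in wild type replicates A to D and 76.2, 80.3, 77.9 and 71.9 CPM in *Tra2b-cPEko* replicates A to D. The genotypes overlapped, with a log2 fold change of 0.08 (95% interval -0.04 to 0.20) and an edgeR adjusted p of 0.507. Its exons share 11.2% of their bases with *Gtf2e2* on the other strand. *Gtf2e2* averaged 94.3 CPM in wild type mice against 84.5 CPM in *Tra2b-cPEko* mice. The paper names a stranded library kit, but whether the counting used strand is not given in the sources used here. The markers of peritubular smooth muscle, set beside *Rbpms* and *Rbpms2*, had summed levels of 1234 to 1412 CPM in the wild type mice, overlapping the 1308 to 1559 CPM of the *Tra2b-cPEko* mice. All 7 markers had a log2 fold change above 0 (median 0.11). Of these, 2 had an unadjusted edgeR p under 0.05, where 8.22% of all genes tested had one and were higher. None had an adjusted p under 0.05 with edgeR's test or with DESeq2. The leading genes, *Acta2* (smooth muscle actin) and *Mylk* (myosin light chain kinase), had log2 fold changes of 0.08 and 0.11. The part of the number of smooth muscle cells in the RBPMS levels was not tested. In whole testis, fewer cells of a type and less RNA per cell cannot be told apart.

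A level relative to a paralogue in the same library needs no scaling between libraries, and 6 such ratios were compared between the genotypes. Reads of *Rbpms* per read of *Rbpms2* were 1.44, 1.50, 1.86 and 1.89 in wild type replicates A to D and 2.04, 2.13, 2.35 and 2.22 in *Tra2b-cPEko* replicates A to D. All *Tra2b-cPEko* ratios were above all wild type ratios, a log2 difference of 0.39 (standard error 0.11) with an exact permutation p of 0.0286, or 0.171 after Benjamini-Hochberg adjustment over the 6 ratios. Reads of *Mbnl1* per read of *Mbnl3* were 2.11, 2.05, 3.01 and 2.39 for wild type replicates A to D, against 3.74, 2.94, 3.23 and 3.20 for *Tra2b-cPEko* replicates A to D. Wild type replicate C lay just above the lowest *Tra2b-cPEko* ratio, so the genotypes overlapped, with a log2 difference of 0.47 (standard error 0.15) and an exact permutation p of 0.0571, adjusted 0.171. The ratio of *Mbnl2* to *Mbnl3* was 2.41 ± 0.423 for wild type and 3.11 ± 0.24 for *Tra2b-cPEko* libraries (SD, n = 4 each), with an exact permutation p of 0.0857, adjusted 0.171. *Mbnl1* and *Mbnl2* had nearly equal reads in every library, with ratios of 0.993 ± 0.035 and 1.06 ± 0.0619 (SD, n = 4). No ratio had an adjusted p under 0.05, and 4 against 4 mice cannot give 1 ratio alone an adjusted p below 0.171 among 6.

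**Figure D2:**
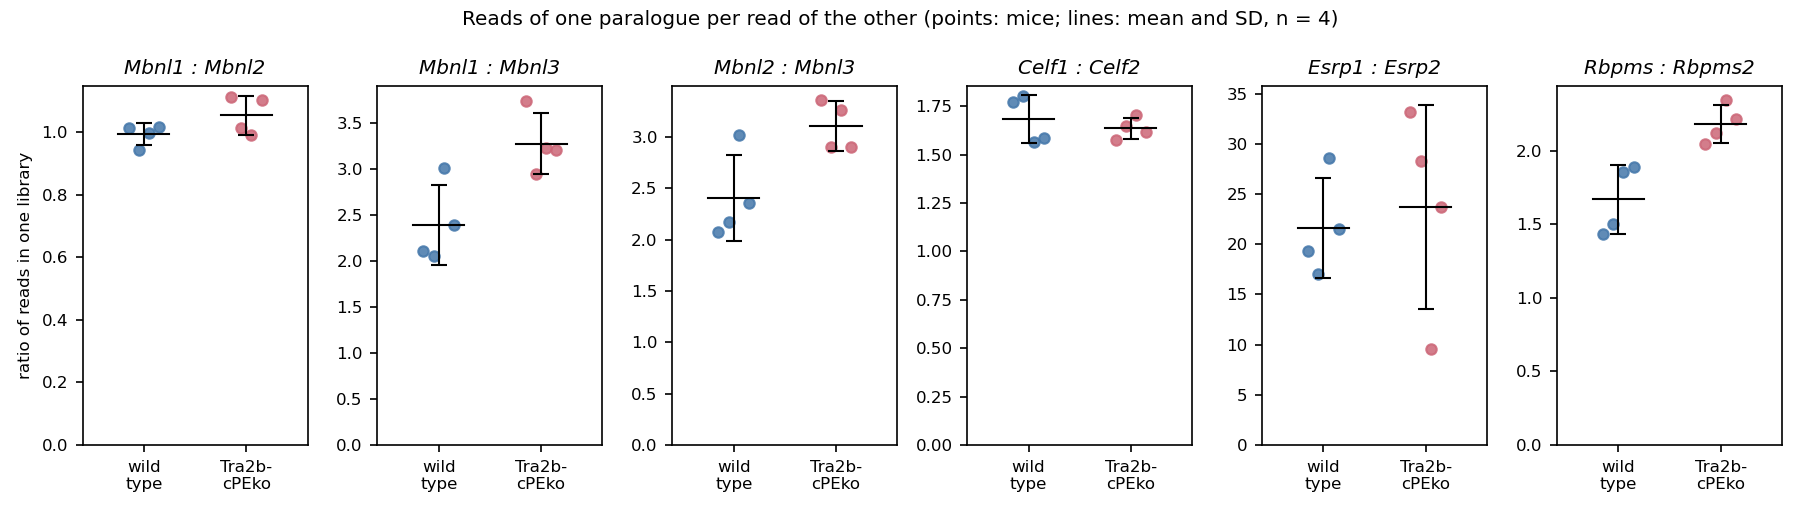
Reads of one paralogue per read of the other in the same library (linear axes from 0), 1 point per mouse, wild type in blue and *Tra2b-cPEko* in red, with the mean and SD (n = 4) as black lines. *Rbpms* per *Rbpms2* is at most 1.89 in wild type and at least 2.04 in *Tra2b-cPEko* testes, and the points of the other 5 ratios overlap.

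Among the wild type mice, replicate A was highest and replicate C lowest in both *Mbnl3* and *Rbpms2*, while replicate B was above D in *Rbpms2* and below it in *Mbnl3*. Wild type replicates A and B stood apart in the markers of pachytene spermatocytes, the germ cells that appear at about this age, with summed levels of 206.7 and 203.0 CPM respectively, against 90.4 and 102.9 CPM in replicates C and D and 100.3 to 130.3 CPM in the *Tra2b-cPEko* mice. Of the 9 genes of that list, 4 were under 1 CPM (*Pgk2*, *Acrv1*, *Spata16* and *Ccna1*), and its most abundant genes were *Mybl1* and *Clgn*. *Clgn* showed this pattern, with 65.7 and 65.1 CPM in wild type A and B against 25.1 to 41.4 CPM in the other mice. So did *Piwil1*, with 43.6 and 46.8 CPM against 9.0 to 14.4 CPM. *Ldhc* (28.7 and 25.1 against 3.1 to 9.9 CPM) and *Adam2* (8.8 and 9.1 against 1.6 to 4.3 CPM) also did. *Mybl1* did not, with 58.6 and 54.7 CPM against 51.0 to 59.5 CPM in *Tra2b-cPEko* mice. Wild type A and B were also highest in the summed markers of leptotene and zygotene spermatocytes, at 1826 and 1608 CPM against 1348 to 1468 CPM. With wild type replicates C and D alone as controls, a comparison chosen after the data were seen, the log2 fold change was -0.20 for *Mbnl3*, -0.21 for *Rbpms2* and 0.09 for *Mbnl1*, with edgeR adjusted p of 0.408, 0.369 and 0.57. That comparison has fewer mice, and over all genes edgeR called 1 in it, against 30 with every mouse included. The part of germ cell stage in these differences was not tested beyond these values.

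**Figure D3:**
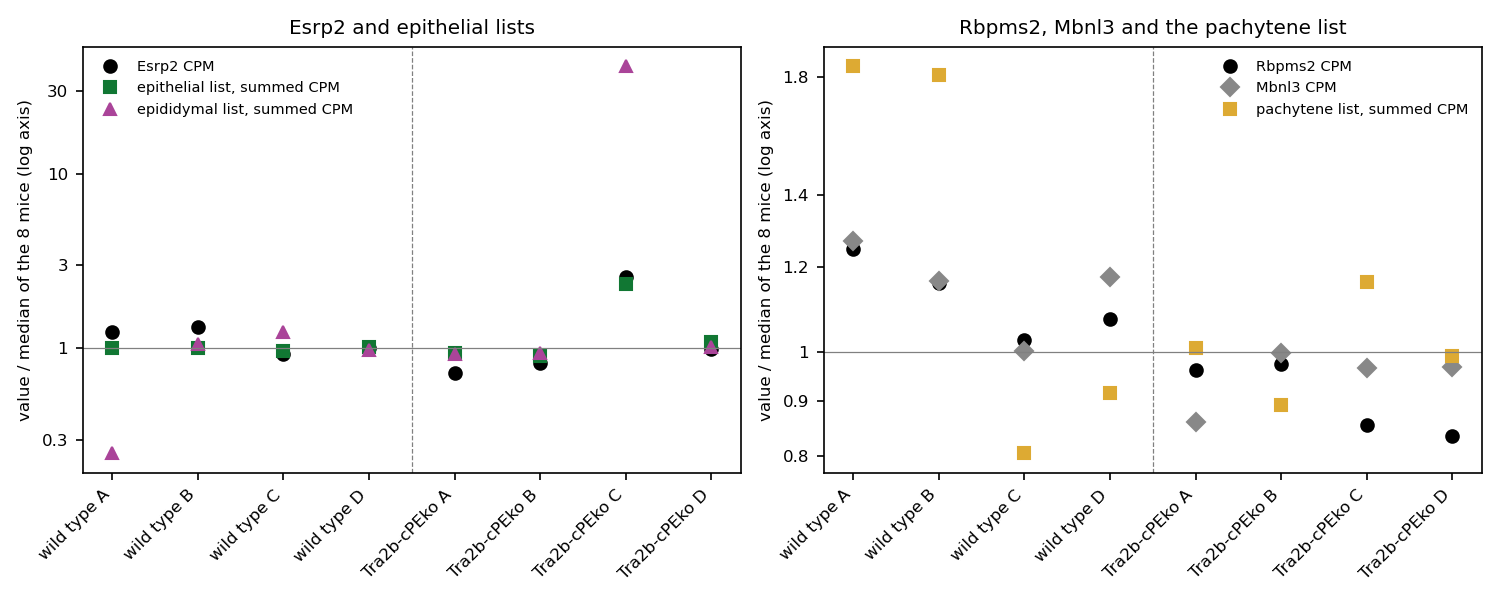
Values in each mouse divided by the median of the 8 mice (log axes): left, *Esrp2* level and the summed CPM of the epithelial and epididymal marker lists; right, *Rbpms2* and *Mbnl3* levels and the summed CPM of the pachytene list. *Tra2b-cPEko* replicate C is highest for all 3 values on the left, and wild type A and B are highest for the pachytene list on the right.

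Of the ESRP genes, *Esrp1* showed nearly the same level in both genotypes, and the comparison of *Esrp2* rested on 1 mouse. *Esrp1*, on chromosome 4 from 11331933 to 11386875, had 42.0, 39.4, 46.2 and 37.9 CPM in wild type replicates A to D and 41.9, 40.8, 42.9 and 41.4 CPM in *Tra2b-cPEko* replicates A to D. The *Tra2b-cPEko* mice lay within the wild type range, and the 95% interval of the log2 fold change was -0.12 to 0.15. *Esrp2* had 2.17, 2.32, 1.62 and 1.76 CPM in wild type replicates A to D and 1.26, 1.44, 4.49 and 1.74 CPM in *Tra2b-cPEko* replicates A to D, from 53 to 210 reads per library. One mouse, *Tra2b-cPEko* replicate C, was far above the other 7, which were between 1.26 and 2.32 CPM. The log2 fold change of *Esrp2* was 0.20 with a 95% interval from -0.73 to 1.12, and it turned to -0.41 without that mouse.

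The same mouse had the highest epithelial markers. The 7 epithelial markers summed to 163.5 CPM in *Tra2b-cPEko* replicate C and to between 62.9 and 75.4 CPM in the other 7 mice, with *Epcam*, an epithelial adhesion protein gene, at 89.8 CPM against 45.7 to 58.0 CPM, and *Grhl2*, an epithelial transcription factor gene, at 9.41 CPM against 5.86 to 7.14 CPM. The 6 markers of epididymal epithelium summed to 171.9 CPM in that mouse and to between 1.04 and 5.13 CPM in the others, mostly from *Crisp1* (107.2 CPM against at most 0.341 CPM) and *Cdh16* (55.2 CPM against at most 0.953 CPM), while *Lcn8*, *Lcn9* and *Adam28* were under 1 CPM on average. *Esrp1* was 42.9 CPM there, inside the range of the other mice. The part of epithelial tissue in the *Esrp2* value was not tested. *Esrp2* also shares 33.4% of its exon bases with *Nfatc3* on the other strand. *Nfatc3* averaged 157.6 CPM in wild type against 156.3 CPM in *Tra2b-cPEko* mice. The libraries were stranded, but if the counting ignored strand, reads where the genes overlap could not be assigned to 1 of them.

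*Celf1*, *Celf2* and *Rbfox2* showed small differences with narrow intervals. *Celf1* had 313.2, 284.7, 303.0 and 293.8 CPM in wild type replicates A to D and 289.7, 309.9, 308.3 and 287.7 CPM in *Tra2b-cPEko* replicates A to D. Means were 298.7 ± 12.2 and 298.9 ± 11.8 CPM (SD, n = 4 each), and the 95% interval of the log2 fold change was -0.10 to 0.10. *Celf2*, which acts in brain, heart and lymphocytes, averaged 178.4 ± 15.4 CPM against 182.7 ± 4.42 CPM in *Tra2b-cPEko* mice (SD, n = 4 each), with an interval of -0.09 to 0.16. *Rbfox2*, the broadly expressed member of its family, had 102.5 ± 5.29 and 101.4 ± 5.55 CPM (SD, n = 4), with an interval of -0.13 to 0.10. Reads of *Celf1* per read of *Celf2* were 1.68 ± 0.124 against 1.64 ± 0.0529 in *Tra2b-cPEko* libraries (SD, n = 4 each), with an exact permutation p of 0.514.

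**Figure D4:**
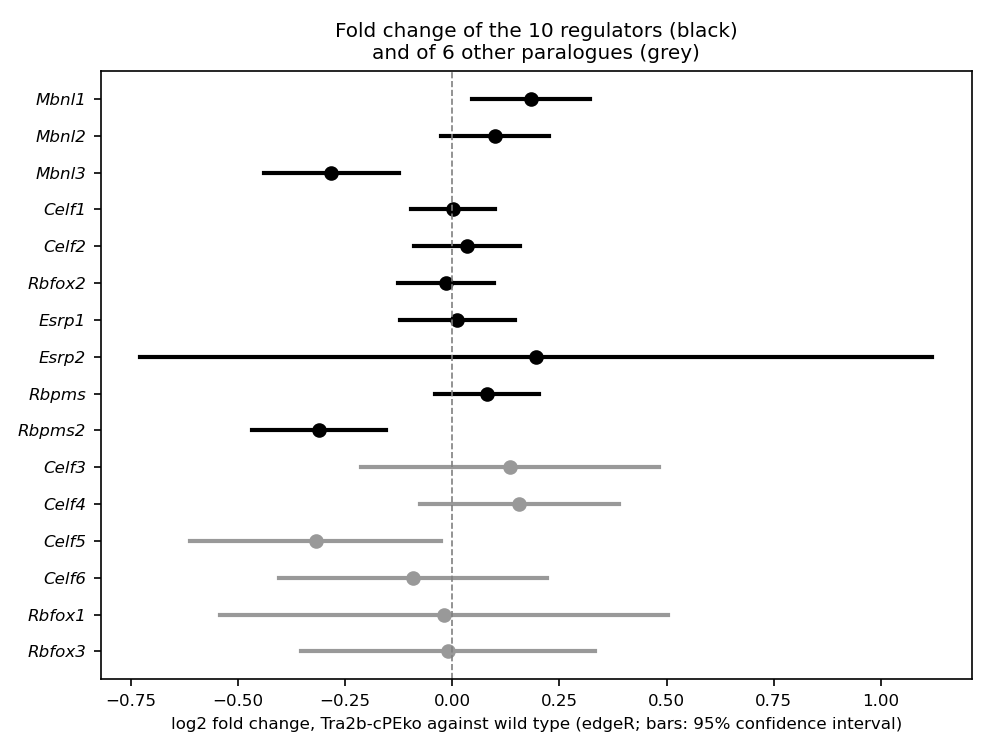
Log2 fold change of *Tra2b-cPEko* against wild type (points) with its 95% confidence interval (bars) for the 10 regulators in black and for 6 further paralogues of the CELF and RBFOX families in grey. Among the black intervals those of *Mbnl1* (0.05 to 0.32), *Mbnl3* (-0.44 to -0.13) and *Rbpms2* (-0.47 to -0.15) lie to one side of 0, and the widest is that of *Esrp2*.

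Per kilobase of exon, *Celf1* was the most abundant of the 10 and *Esrp2* the least. With the exon union of GENCODE vM39 as length, the level on the RPKM scale in wild type testes was 34.3 for *Celf1*, 12.1 for *Rbfox2*, 10.6 for *Rbpms2*, 6.75 for *Celf2*, 6.31 for *Mbnl2*, 5.29 for *Esrp1*, 4.92 for *Mbnl1*, 4.27 for *Rbpms*, 3.20 for *Mbnl3* and 0.251 for *Esrp2*. In wild type mice *Rbfox2* overlapped *Rbpms2*, and each gene from *Celf2* to *Mbnl1* overlapped its next neighbour in this order. *Rbpms2* had fewer reads than *Rbpms* but a higher level per length, since its exon union was 4129 bases against 16955. The authors' methods name NCBI annotation, so the counts and these lengths may come from different exon models. In *Tra2b-cPEko* testes *Rbfox2* (11.9) and *Rbpms2* (8.52) no longer overlapped, and *Mbnl1* (5.59) stood before *Esrp1* (5.33), with overlap. With the longest transcript as length, *Celf2* came second in both genotypes and the order of the genes between *Celf1* and *Rbpms* differed, while *Celf1* stayed first and *Rbpms*, *Mbnl3* and *Esrp2* stayed last.

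**Figure D5:**
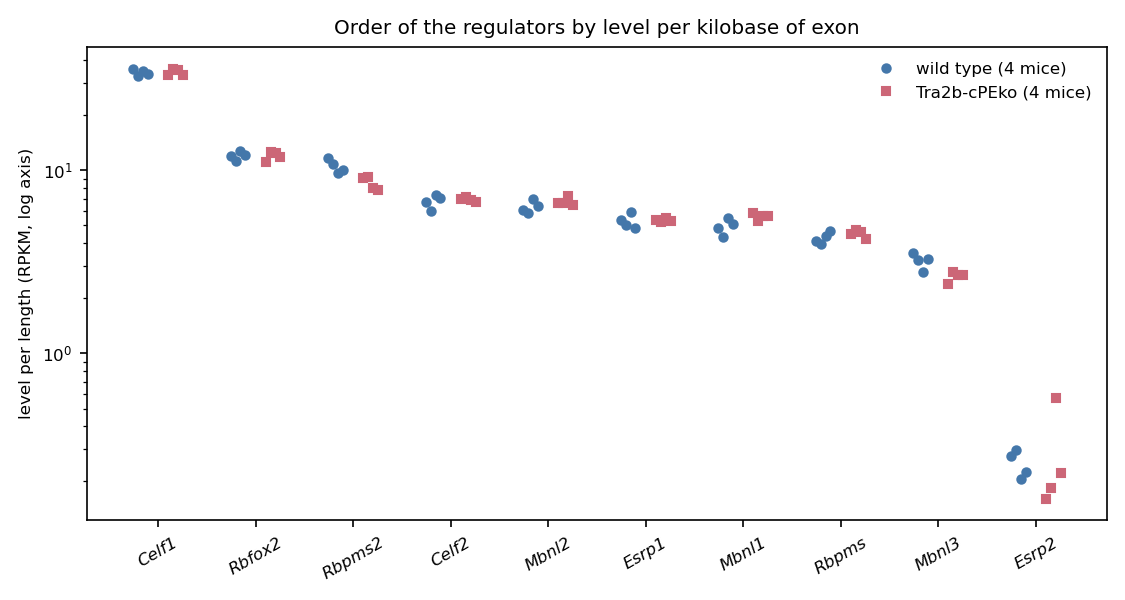
Level per kilobase of exon union (RPKM scale, log axis) of the 10 regulators, ordered by the wild type mean, with 1 point per mouse (blue circles wild type, red squares *Tra2b-cPEko*). *Celf1* lies above all other genes in every mouse (32.7 to 35.9) and *Esrp2* below all (0.161 to 0.572).

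The remaining paralogues of the CELF and RBFOX families, which are known mainly from neurons, were near the lower end of the levels, and none of the 6 had an adjusted p under 0.05 with edgeR's test or with DESeq2. *Celf5* had 4.46, 5.06, 3.68 and 3.88 CPM in wild type replicates A to D and 3.41, 4.06, 3.25 and 2.97 CPM in *Tra2b-cPEko* replicates A to D, with overlap. Its log2 fold change was -0.32 (standard error 0.14). By edgeR's quasi-likelihood test its p was 0.0354 unadjusted and 0.293 adjusted. *Celf3*, *Celf4*, *Celf6*, *Rbfox1* and *Rbfox3* had mean levels between 0.550 and 6.08 CPM and log2 fold changes between -0.09 and 0.16.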

How the data were processed

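RNA of whole P12 testes was sequenced from 4 wild type and 4 *Tra2b-cPEko* mice, described as biologically independent, with no batch or litter given. The authors deposited raw counts per gene, 1 table per mouse. Their methods name HISAT2 alignment to GRCm39 with NCBI annotation and Salmon, while the processing notes name HISAT2 2.2.1 and HTSeq 2.0.2, and the 5 summary lines (30.97% to 33.58% of reads, left out here) have the htseq-count form. The strand setting is not given in the sources used here.

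Counts were analysed with edgeR 4.0.16 in R 4.3.3 (filterByExpr with a least count of 10, TMM, robust quasi-likelihood F-test, genotype only), with Benjamini-Hochberg adjustment over the 19104 genes tested and a threshold of 0.05. The biological coefficient of variation was 9.56%. Exact permutation tests were two-sided over 70 arrangements of log2 CPM (prior count 2) or log2 ratios. Alternatives were DESeq2 1.42.0 with default settings, factors by RLE or by upper quartile, a fit without the filter, the replicate letter as a block, a threshold of 0.1 and fits without each mouse. DESeq2 fits without each mouse, and the comparison with wild type C and D alone, were added after the data were seen. Intervals of fold changes are at 95%.

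Positions, lengths and overlaps came from GENCODE vM39 on GRCm39, and copies from BLAST+ 2.17.0 at 95% identity. The 10 regulators and all gene lists were chosen with earlier results of these data known. All 10 regulators and 6 paralogues were to be named, with other regulators at an unadjusted p under 0.05, and of marker lists the 2 most abundant genes and any called gene. *Gm3470*, *Nfatc3*, *Gtf2e2*, the marker genes named as under 1 CPM and the X chromosome summary were chosen after their values were seen. The same holds for *Piwil1*, *Ldhc*, *Adam2*, *Rbm24* and *Rbm11*. The fit was tested on simulated counts. Python 3.11.15 and matplotlib 3.10.9 were used.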

Additional observations from a re-analysis of the deposited data

Results flagged for a closer look

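In *Tra2b-cPEko* testes *Esrp2* had 1 value that stood far from the other 3, 4.49 CPM in replicate C, with a gap to the nearest value of 0.851 of the group's range, above Dixon's critical value for 4 samples. Of the 32 groups of 4 values screened in this way, about 1.6 would be expected to pass by chance.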

How the results depend on the processing

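Of the 10 regulators, edgeR called 0 and DESeq2 2. The number was 1 without the low-count filter (*Rbpms2*), between 0 and 1 in edgeR fits without 1 mouse (*Mbnl3* without wild type C), and between 0 and 3 in DESeq2 fits without 1 mouse. Over all genes the count was 30 with edgeR, 507 with DESeq2, 58 with upper-quartile factors (91.4% higher in *Tra2b-cPEko*, against 83.3%, 59.4% with DESeq2, 73.2% without the filter and 61.9% without wild type C), 123 without the filter, 156 at a threshold of 0.1, 1 with wild type C and D alone as controls and between 3 and 84 without 1 mouse, and between 110 and 1025 in DESeq2 fits without 1 mouse. The log2 fold changes of *Mbnl1*, *Mbnl2*, *Mbnl3*, *Rbpms* and *Rbpms2* kept their sign in all 22 alternatives run for each, with ranges of 0.09 to 0.24, 0.02 to 0.15, -0.35 to -0.20, 0.01 to 0.12 and -0.36 to -0.21. 

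The signs of *Celf1*, *Celf2*, *Rbfox2* and *Esrp1*, whose values were near 0, turned, and the cause was not tested. *Celf1* was -0.002 with DESeq2, -0.0 with RLE factors, -0.007 without the filter and between -0.023 and 0.023 without 1 mouse. *Celf2* was -0.05 with wild type C and D alone and between -0.022 and 0.074 without 1 mouse. *Rbfox2* was 0.003 with upper-quartile factors and between -0.048 and 0.018 without 1 mouse. *Esrp1* was -0.008 with wild type C and D alone and between -0.032 and 0.069 without 1 mouse. *Esrp2* was between -0.414 and 0.397 without 1 mouse, and below 0 only without *Tra2b-cPEko* C. The log2 difference of the *Esrp1* to *Esrp2* ratio lay between -0.19 and 0.408 without 1 mouse. That of *Mbnl1* to *Mbnl3* lay between 0.398 and 0.583 and that of *Mbnl2* to *Mbnl3* between 0.315 and 0.495, both with an exact permutation p of 0.0286 without wild type C. That of *Rbpms* to *Rbpms2* lay between 0.325 and 0.457. Its exact permutation p was 0.0286 without each wild type mouse and 0.0571 to 0.0857 without each *Tra2b-cPEko* mouse.

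The deviations of same-lettered mice from their group means had correlations of 0.0267, -0.135, -0.0393 and 0.116 for A to D. These values do not show that the letters pair the mice, and whether a letter stands for a litter or batch is not given. With the replicate letter as a block, edgeR called 67 genes and 1 regulator, *Rbpms2* (adjusted p 0.0452), and the *Rbpms* to *Rbpms2* difference was 0.394 with an exact p of 0.125, the smallest that 4 pairs allow. *Esrp2* had the fewest reads of the 10 regulators, 53 to 210 a library.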

Other observations

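Other regulators known for cell-type-restricted splicing were set beside the 10 genes. Of 19 listed, 18 were tested, and none had an adjusted p under 0.05 with edgeR's quasi-likelihood test or with DESeq2, while 4 had an unadjusted edgeR p under 0.05, as had 15.3% of all genes tested. *Rbm47*, an epithelial RNA-binding protein gene, had 2.44, 3.24, 3.35 and 3.96 CPM in wild type replicates A to D and 4.41, 4.20, 4.34 and 4.79 CPM in *Tra2b-cPEko* replicates A to D. These values did not overlap, and *Tra2b-cPEko* replicate C was not the highest of them (log2 fold change 0.44, standard error 0.14, edgeR adjusted p 0.179). *Tial1*, which encodes a TIA1-related protein, had 97.6 ± 6.30 CPM in wild type and 87.4 ± 3.11 CPM in *Tra2b-cPEko* testes (SD, n = 4; edgeR adjusted p 0.192). *Rbm4b* and the neuronal gene *Elavl4* had log2 fold changes of -0.15 and -0.39 (edgeR adjusted p 0.268 and 0.315).

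Among the marker lists of testis cells, the mean log2 CPM of the list did not overlap between the genotypes for macrophages, higher in the *Tra2b-cPEko* mice with a median log2 fold change of 0.26 and 10 of 10 genes above 0, and for differentiating spermatogonia, lower with a median of -0.11 and 5 of 5 genes below 0. By summed CPM both lists overlapped, with 148.1 to 184.5 CPM in wild type against 184.3 to 220.1 CPM for macrophages and 456.8 to 497.4 against 396.1 to 457.5 CPM for differentiating spermatogonia, and no single macrophage gene was without overlap. None of the macrophage genes passed edgeR's adjusted threshold (6 of 10 had an unadjusted p under 0.05 and were higher, against 8.22% of all genes, and DESeq2 called 2 higher, against 1.66%), and 1 spermatogonial gene did, *Sohlh1*, a transcription factor gene of early germ cell differentiation (log2 fold change -0.35, edgeR adjusted p 0.0341). Markers of Sertoli cells, the somatic nurse cells of the tubules, had a median of -0.03 and those of undifferentiated spermatogonia 0.02. Medians of other germ cell and Leydig cell lists were further from 0, at -1.13 for pachytene spermatocytes (5 of 7 tested genes below 0), -0.12 for leptotene and zygotene spermatocytes (10 of 12 below 0) and 0.41 for the steroid-producing Leydig cells (5 of 7 above 0), with overlap between the genotypes and no gene past edgeR's adjusted threshold in any of these 3 lists. An unadjusted edgeR p under 0.05 was found for 1 pachytene gene and for 3 leptotene and zygotene genes, all lower. Of the Leydig genes 2 had one, 1 higher and 1 lower, where the share of all genes tested was 15.3%. DESeq2 called 1 pachytene gene lower, 0 leptotene and zygotene genes and 1 Leydig gene higher, where 2.79% of all genes with an adjusted p passed.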
